A study of Homo sapiens with 37 samples.

Results

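The complement genes C3, C7, C1R, C1S, CFB, CFD, SERPING1, CD55 and CD59 are 9 of the 57773 genes counted in 37 libraries of cultured human cells. They were found by matching the gene identifiers of the count tables to these symbols. The set was chosen by measured values in part, the fold change of C3 in WI-38 fibroblasts. C3 ranked 1 in a first doxorubicin experiment, 2 in its repeat and 2 after irradiation, among 14092 to 14143 genes with an average of at least 1 on the log2 CPM scale. Just outside that choice, C3 ranked 39 with mutant HRAS and 73 at late passage. The doxorubicin and irradiation values of WI-38 are therefore given as a description, with no p-value for any of the 9 genes.

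The study compared cells brought towards senescence, a lasting stop of division, with control cells of the same kind. HAEC are endothelial cells of the aorta (population doubling level, PDL, 4 to 6) and HUVEC those of the umbilical vein (PDL 3 to 5), each left untreated or given 4 Gy of ionising radiation. IMR-90 and WI-38 are strains of fibroblasts from fetal lung. IMR-90 cells were proliferating at PDL 15, irradiated with 10 Gy at PDL 15, or at late passage (PDL 52). WI-38 cells at PDL 25 received doxorubicin, which damages DNA, at 2 µg/mL for 24 h. This was done in an initial and in a repeat experiment, both with untreated controls. Other WI-38 cells at PDL 25 received a lentivirus carrying HRAS G12V, an always active form of HRAS, or an empty vector, each at a multiplicity of infection of 10 with 1 µg/mL puromycin. Still others were irradiated with 10 Gy at PDL 25 or grown to late passage (PDL 53 to 55), against untreated cells and proliferating cells at PDL 25. Control HAEC gave 2 libraries, irradiated HAEC 3, each HUVEC group 3, and each of the 13 fibroblast groups 2. Both IMR-90 comparisons share 1 control group. Whether replicates were separate cultures is not in the labels, so a p-value here speaks to the spread of these libraries alone, possibly a technical one.

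Complement is a cascade of plasma proteins that tags and lyses targets. In the classical pathway the proteases C1r and C1s are bound to C1q, and C1s cleaves C4 and C2 to form an enzyme that splits C3. In the alternative pathway factor D cleaves factor B bound to C3b, which amplifies C3 cleavage, and C7 belongs to the terminal proteins that assemble the membrane attack complex. C1 inhibitor, encoded by SERPING1, blocks C1r and C1s, while CD55 dissociates the C3-splitting enzymes and CD59 blocks the attack complex on the cell's own membrane. The liver is the main source of the plasma proteins, and fibroblasts and endothelial cells are also known to make several of them.

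The 250 bases before the start site were available from RefSeq (GRCh38.p14) for 6 of the 9 genes. C3, C1S and SERPING1 had no entry. The windows were searched on both strands for 6 motifs: NF-kB, IRF, STAT (TTCNNNGAA), C/EBP (TTNNGNAA), AP-1 (TGANTCA) and the TATA box (TATAAA). The 4 windows with a match are printed, so that they can be read beside the changes of CFB, C1R, C7 and CD59. Capitals mark the matches, and positions count back from the start site at -1 and give the left end of a match.
CFB (chr6:31945845-31946094, plus strand): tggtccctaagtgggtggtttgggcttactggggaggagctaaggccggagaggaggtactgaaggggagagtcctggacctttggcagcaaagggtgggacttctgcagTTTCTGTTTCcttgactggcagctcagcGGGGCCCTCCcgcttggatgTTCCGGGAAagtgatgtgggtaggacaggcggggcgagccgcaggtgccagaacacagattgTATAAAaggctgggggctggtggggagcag
C1R (chr12:7092446-7092695, minus strand): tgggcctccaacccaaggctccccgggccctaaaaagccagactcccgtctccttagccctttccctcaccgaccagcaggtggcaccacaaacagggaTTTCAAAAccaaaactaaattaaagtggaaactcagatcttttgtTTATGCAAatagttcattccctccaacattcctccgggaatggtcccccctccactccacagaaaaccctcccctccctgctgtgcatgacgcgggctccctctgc
C7 (chr5:40909247-40909496, plus strand): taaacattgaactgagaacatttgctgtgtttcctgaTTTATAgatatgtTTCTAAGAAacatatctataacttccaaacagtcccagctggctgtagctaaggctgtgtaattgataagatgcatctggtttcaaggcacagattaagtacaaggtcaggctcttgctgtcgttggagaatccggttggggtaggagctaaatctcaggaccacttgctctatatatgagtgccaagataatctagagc
CD59 (chr11:33736480-33736729, minus strand): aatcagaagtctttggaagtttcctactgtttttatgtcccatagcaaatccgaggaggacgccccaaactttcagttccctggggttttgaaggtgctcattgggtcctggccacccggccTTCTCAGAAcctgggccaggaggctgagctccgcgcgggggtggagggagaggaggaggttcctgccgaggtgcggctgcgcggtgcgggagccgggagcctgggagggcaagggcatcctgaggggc
CFB held an IRF match at -140, an NF-kB match at -112, a STAT match at -92 and a TATA box at -30. C1R held C/EBP matches at -151 and -106, C7 a STAT match at -200 and a reverse TATA box at -213, and CD59 a STAT match at -128. No match lay in the windows of CFD and CD55. Of 35116 windows of this length, 9.96% held an NF-kB, 3.02% an IRF, 6.57% a STAT, 33.2% a C/EBP, 6.57% an AP-1 and 10.7% a TATA match. A match describes these letters only.

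Libraries held between 102293388 and 370996204 counts each. The 12 libraries of the doxorubicin repeat, WI-38 irradiation and WI-38 late passage held 82.0% to 91.1% of counts in protein-coding genes and 3.21% to 14.02% in mitochondrial genes, against 50.7% to 66.9% and 0.1005% to 0.607% in the other 25. Levels are in CPM (counts over a TMM-scaled library size), scaled separately in HAEC, HUVEC, IMR-90, the first and the second WI-38 set, so levels set across these sets are a description. HRAS stood at 1966 CPM with the HRAS vector and 41.5 with the empty one. MKI67, a proliferation marker, stood at 18.6 CPM in the IMR-90 libraries labelled proliferating, 29.6 after irradiation and 20.04 at late passage, so that these libraries go against their labels on this gene. The untreated WI-38 controls of the irradiation held MKI67 at 201 CPM, against 36.2 and 42.2 in the other untreated groups of that set. All 8 fibroblast markers exceeded 1 CPM in every fibroblast library, and all 8 endothelial markers in every endothelial library. The 6 hepatocyte markers together reached at most 0.476 CPM in a library. Among 6 leukocyte markers 1 exceeded 1 CPM in each endothelial library and 1 to 4 in fibroblast libraries, with a summed level of 4.81 to 8.46 and 7.94 to 61.7 CPM. In these bulk samples, fewer cells of a type and less RNA per cell cannot be told apart.

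In IMR-90 most of the complement members were lower in irradiated and in late-passage cells. After irradiation edgeR's quasi-likelihood test (Benjamini-Hochberg adjusted p, q, below 0.05) called 1 member higher and 6 lower of 9, where 49.1% of all genes were called, 26.6% higher and 22.5% lower. At late passage 3 were higher and 6 lower of 9, where 50.1% were called, 26.6% higher and 23.5% lower. The median log2 fold change of the members was -2.09 and -2.02, beside -0.020 and -0.039 over all genes.

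With HRAS in WI-38, 3 members were higher and 5 lower of 9 at a background of 45.9%, 27.1% higher and 18.9% lower, with a median of -0.71 beside 0.071. At late passage in WI-38, 2 were higher and 2 lower of 9 at a background of 12.6%, 5.8% higher and 6.82% lower, with a median of -0.12 beside 0.013. Irradiated HAEC had 3 higher and 2 lower of the 8 members tested at a background of 39.7%, 19.7% higher and 19.9% lower, and HUVEC 3 higher and 2 lower of 8 at 38.7%, 18.6% higher and 20.1% lower. SERPING1 did not pass the filter on low counts in HAEC and HUVEC. In the comparisons used to choose the members the same threshold was counted only as a description, from which nothing is read, since the choice fixes part of it. Doxorubicin gave 6 higher and 0 lower of 9 (26.8% of all genes, 13.6% higher and 13.2% lower), its repeat 4 higher and 0 lower of 9 (5.45%, 3.18% higher and 2.26% lower) and irradiation of WI-38 8 higher and 0 lower of 9 (15%, 8.89% higher and 6.09% lower). Of these, CD55 after irradiation missed the threshold in each of the 4 fits without 1 library, and CFB in the repeat in 3 of 4. No share was tested against the background.

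**Figure D1:**
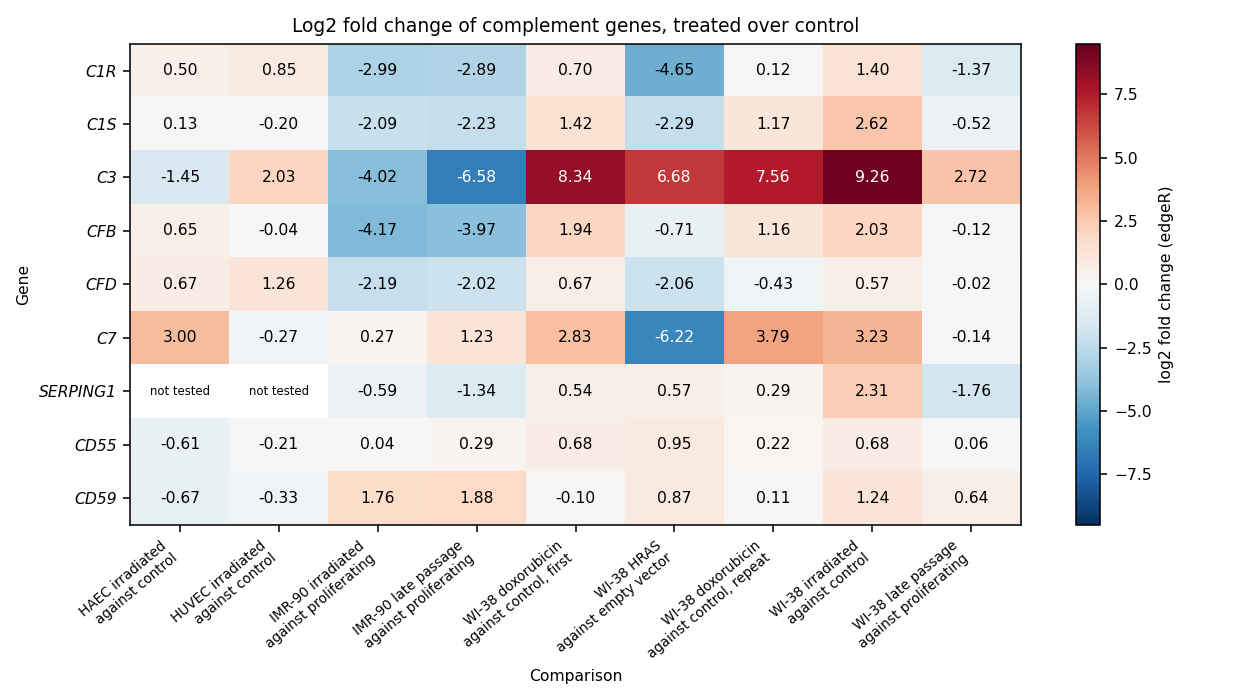
Fold changes of the 9 complement genes (rows) in the 9 comparisons of treated with control cells (columns), as edgeR log2 fold change on a colour scale with the value in each cell. C3 runs from -6.58 in late-passage IMR-90 to 9.26 in irradiated WI-38, and SERPING1 has no value in HAEC and HUVEC.

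C1R and C1S encode the proteases of the C1 complex. In proliferating IMR-90 they stood among the higher levels of the series, C1R at 351 and 362 CPM and C1S at 544 and 583. C1R fell to 44.1 and 45.8 CPM after irradiation (-2.99 ± 0.21, log2 ± SE, edgeR q = 2.79e-08) and to 32.8 and 63.8 at late passage (-2.89 ± 0.20, q = 3.63e-08). C1S fell to 129.9 and 134 CPM (-2.09 ± 0.13, edgeR q = 7.47e-09) and 97.4 and 143 (-2.23 ± 0.13, q = 3.98e-09). No treated library reached the level of a control library for either gene. Late-passage replicate 1 lay at about the level of irradiated cells or under it, and replicate 2 above it. The summed level of the 8 fibroblast markers moved with these falls, from 14179 to 14930 CPM in proliferating cells to 3150 to 3224 after irradiation and 4792 to 5141 at late passage. Of these 8, 1 was called higher and 7 lower after irradiation (background 49.1%), and 2 and 6 at late passage (50.1%). Endothelial markers went from 251 to 253 CPM to 95.2 to 95.6 and 72.4 to 105 in sum. Of 8 endothelial markers only 1 was called higher and 2 lower after irradiation, and 1 and 6 at late passage. Epithelial markers went from 7.61 to 7.63 to 49.00 to 51.6 and 42.99 to 53.2, with 4 of the 5 tested called higher in each comparison. The part of these markers in the result was not tested.

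HRAS in WI-38 was followed by the lowest fibroblast levels of both proteases. C1R fell from 63.4 and 70.3 CPM with the empty vector to 2.45 and 2.90 (-4.65 ± 0.15, edgeR q = 1.54e-09). C1S fell from 106 and 111 to 19.97 and 24.2 CPM (-2.29 ± 0.13, edgeR q = 7.10e-08). The loss of C1R was thus deeper in log2 units than that of C1S, a difference for which no test was made. The fibroblast markers summed to 6067 to 7090 CPM with the empty vector and 1044 to 1156 with HRAS, and their part in the result was not tested.

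At late passage in WI-38, C1R fell from 279 and 252 CPM to 99.7 and 105 (-1.37 ± 0.22, edgeR q = 8.17e-04). C1S stood at 675 and 692 CPM in proliferating and 497 and 455 in late-passage cells (-0.52 ± 0.20, edgeR q = 0.111), with no overlap, and passed in a fit of these 2 groups alone (edgeR q = 0.0410). Over the 6 untreated libraries of this second WI-38 set, C1R ran from 122 to 311 CPM and C1S from 172 to 692. The irradiation controls were lowest, with means of 125 and 179 CPM. Late-passage C1R still lay below all 6, while late-passage C1S lay within their range and above the irradiation controls. The size of the C1R fall and the direction for C1S thus depend on which untreated group is used. Leukocyte markers summed to 29.4 to 30.97 CPM in the proliferating and 46.1 to 61.7 in the late-passage libraries, with 1 and 2 to 4 of 6 above 1 CPM. Fibroblast markers went from 5349 to 5436 CPM to 3572 to 3793, with 2 of 8 called lower and 0 higher. The part of these markers in the result was not tested.

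In the WI-38 comparisons that chose the members, C1S stood at 391 and 371.2 CPM after doxorubicin against 142 and 144 in controls in the first experiment (1.42), at 1377 and 997 against 470.0 and 582 in the repeat (1.17), and at 977 and 1235 against 172 and 186 around irradiation (2.62). C1R stood at 97.3 and 98.5 CPM against 61.04 and 59.7 (0.70), at 395 and 246 against 311 and 279 (0.12), and at 287 and 376 against 122 and 129 (1.40). C1R overlapped between groups in the doxorubicin repeat alone. Fibroblast markers moved with these values, from 4507 to 4578 CPM to 7949 to 8194 in the first experiment, from 3433 to 5126 to 6826 to 8812 in the repeat and from 4903 to 5149 to 6610 to 6903 around irradiation, and their part was not tested. The 3 untreated groups of this second set differed among themselves, C1R running from 122 to 311 CPM and C1S from 172 to 692 over their 6 libraries, with the irradiation controls lowest. Against all 6, irradiated C1S was still higher in each library, while irradiated C1R replicate 1 lay within their range.

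In endothelium C1R and C1S were near 1 CPM. C1R rose in HUVEC from 0.674, 0.917 and 0.616 CPM to 1.29, 1.41 and 1.27 after irradiation (0.85 ± 0.18, edgeR q = 4.38e-04), with no overlap. In HAEC, C1R stood at 1.31 and 0.724 CPM in controls and 1.30, 1.52 and 1.57 after irradiation (0.50 ± 0.21, edgeR q = 0.0636), and without control replicate 1 the difference was 1.03 (q = 7.79e-04). It also passed with no filter on low counts (edgeR q = 0.0272). C1S had 0.13 in HAEC (edgeR q = 0.674; 0.70, q = 0.0209, without control replicate 1) and -0.20 in HUVEC (q = 0.419). Exons of C1R share 11.4% of their bases with the neighbouring C1RL, and those of C1S 3.54% with EMG1, so part of their reads is uncertain.

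The ratio of C1S to C1R, as CPM per kilobase of exon, was noticed after the values were seen and is a description with no test. It was higher in every treated than every control library in 7 of 7 fibroblast comparisons, and lower in 2 of 2 endothelial ones. No such count was made for other pairs of genes, so how common this separation is in these libraries is not known. Both IMR-90 comparisons share their controls, and 3 of the WI-38 comparisons chose the members. In endothelium both genes were low, and so was C1R with HRAS (mean 2.67 CPM). Exons of C1R share 11.4% of their bases with C1RL, which makes the ratio uncertain, most of all where C1R is low. In WI-38 it was 1.43 to 1.52 with the empty vector and 7.42 to 7.60 with HRAS, although both genes fell. At late passage it was 2.20 to 2.50 in proliferating and 3.94 to 4.54 in late-passage WI-38. In IMR-90 it was 1.41 to 1.47 in proliferating, 2.67 to 2.68 in irradiated and 2.05 to 2.70 in late-passage cells. HAEC went from 1.04 to 1.08 in controls to 0.727 to 0.886 after irradiation, and HUVEC from 1.28 to 1.77 to 0.606 to 0.781.

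**Figure D2:**
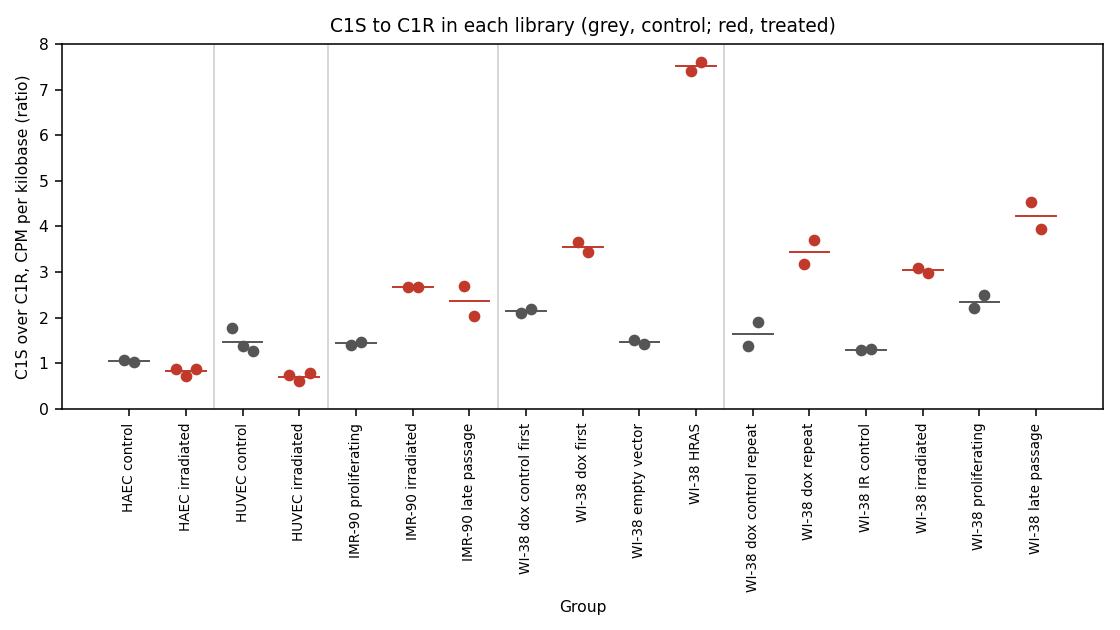
Ratio of C1S to C1R in CPM per kilobase of exon for each library by group, grey for control and red for treated libraries. Treated fibroblasts lie above and irradiated endothelial cells below their own controls.

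C3 encodes the central component, whose cleavage both pathways serve. Its level ran from 0 in a control HUVEC library to 451 CPM in a WI-38 library of the doxorubicin repeat. Group means ran, from the highest, through the doxorubicin repeat (295 CPM), irradiated WI-38 (175), the first doxorubicin experiment (129), HRAS (28.2), proliferating IMR-90 (16.998) and late-passage WI-38 (7.60). Replicates of the doxorubicin repeat overlapped the irradiated group in range, and the other neighbours among these 6 did not overlap, although scaled in separate sets. The remaining 11 groups had means from 0.0237 to 1.56 CPM.

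In the comparisons that chose it, C3 stood at 129 and 130.4 CPM after doxorubicin against 0.333 and 0.461 in controls (8.34 log2), and in the repeat at 451 and 139.6 against 1.62 and 1.496 (7.56). Irradiated WI-38 held 151 and 199.7 CPM against 0.436 and 0.122 (9.26). The irradiation fold rests on control counts of 151 and 34: it was 10.48 without control replicate 1 and 8.66 without replicate 2. Over the 6 untreated libraries of that set C3 ran from 0.122 to 1.62 CPM, with the irradiation controls lowest. The fold thus depends on which untreated group is used, although both irradiated libraries lay above all 6. The repeat was 6.48 without treated replicate 1 and 8.17 without treated replicate 2.

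Outside that choice, C3 rose with HRAS and at late passage in WI-38. It went from 0.302 and 0.242 CPM with the empty vector to 25.7 and 30.7 with HRAS (6.68 ± 0.21, edgeR q = 1.54e-09). At late passage it went from 1.30 and 0.992 to 8.52 and 6.68 CPM (2.72 ± 0.49, edgeR q = 0.00196), with no overlap in either comparison. C3 and the C1 proteases thus moved in opposite directions with HRAS, and C3 and C1R at late passage.

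In IMR-90 C3 fell in both comparisons. Proliferating cells held 17.4 and 16.6 CPM, irradiated cells 1.09 and 1.0034 (-4.02 ± 0.11, edgeR q = 2.26e-12) and late-passage cells 0.179 and 0.174 (-6.58 ± 0.14, q = 2.22e-13). Late-passage cells were also lower than irradiated cells (-2.56 ± 0.17, edgeR q = 8.31e-07). CXCL8, an inflammatory chemokine, moved with C3 here, at 134, 3.88 and 1.77 CPM in the 3 groups, and its part in the result was not tested.

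Endothelial C3 was at the edge of detection. HAEC controls gave 30 and 20 counts (0.197 and 0.201 CPM) and irradiated HAEC 15, 1 and 24 counts (0.0893, 0.00578 and 0.120 CPM), and the difference did not pass (-1.45 ± 0.71, edgeR q = 0.117). HUVEC controls gave 10, 0 and 3 counts (0.0539, 0 and 0.0171 CPM) and irradiated HUVEC 23, 15 and 10 (0.131, 0.101 and 0.0726 CPM), which edgeR called higher (2.03 ± 0.75, q = 0.0358). That call was lost with DESeq2 (adjusted p = 0.0682), with all 37 libraries in 1 fit (edgeR q = 0.192) and without control replicate 2 or 3 or irradiated replicate 1 or 2 (q = 0.0756 to 0.154), and without control replicate 1 the value was 3.41.

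**Figure D3:**
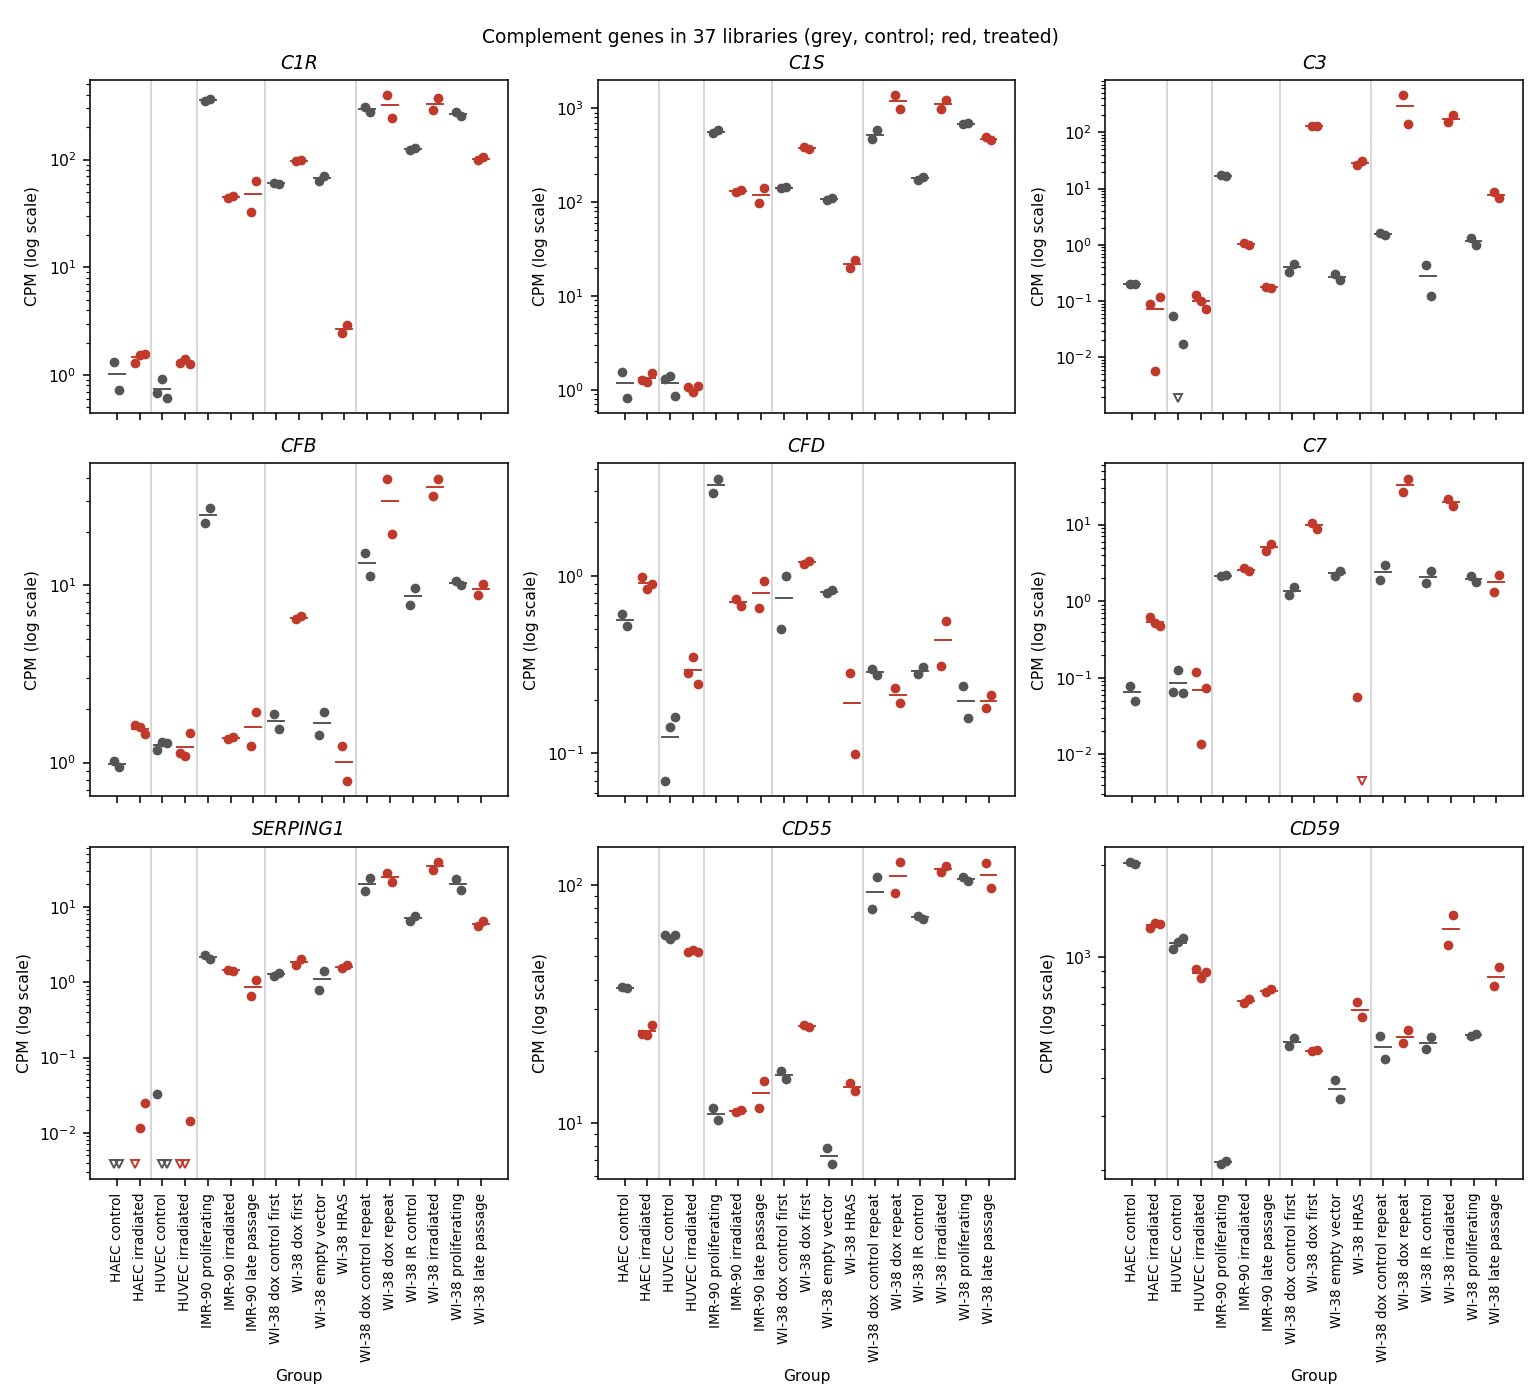
CPM of each complement gene (log axis) in each of the 37 libraries by group (x axis); points are libraries, horizontal bars group means (none where a library is at 0), open triangles libraries at 0, and vertical lines divide the separately scaled sets. C3 is high in doxorubicin-treated, irradiated and HRAS WI-38 and in proliferating IMR-90, and C1R and C1S are near 1 CPM in endothelium.

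CFB and CFD encode factors B and D of the alternative pathway, and the CFB window printed above holds the NF-kB, IRF and STAT matches. CFB fell in IMR-90 from 22.4 and 27.1 CPM to 1.36 and 1.39 after irradiation (-4.17 ± 0.16, edgeR q = 5.75e-11) and 1.25 and 1.92 at late passage (-3.97 ± 0.16, q = 7.90e-11). With HRAS it stood at 1.24 and 0.789 CPM against 1.43 and 1.92 (-0.71 ± 0.24, edgeR q = 0.0282), a call lost without empty-vector replicate 2 (q = 0.0642) or HRAS replicate 2 (q = 0.214). WI-38 at late passage showed 8.86 and 10.2 CPM against 10.6 and 10.1, overlapping (-0.12, edgeR q = 0.861). Irradiated HAEC held more CFB, 1.62, 1.59 and 1.46 against 1.03 and 0.946 CPM (0.65 ± 0.17, edgeR q = 0.00338; q = 0.0714 with all 37 libraries), and HUVEC groups overlapped (-0.040, q = 0.877).

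In the comparisons that chose the members, CFB stood at 6.42 and 6.69 CPM against 1.87 and 1.55 in the first doxorubicin experiment (1.94), 39.96 and 19.5 against 15.2 and 11.3 in the repeat (1.16; 0.56 without treated replicate 1) and 31.9 and 39.6 against 7.77 and 9.69 around irradiation (2.03). A read-through gene, ENSG00000244255, covers 45.0% of the exon bases of CFB, and its count was 72.7% to 97.8% of the CFB count across the libraries (median 91.4%). Reads of CFB and of this transcript cannot be told apart, which makes every CFB value uncertain in level.

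CFD was low throughout, at 0.0701 to 3.53 CPM. Its highest level, 2.93 and 3.53 CPM, was again that of proliferating IMR-90, and it fell to 0.742 and 0.675 after irradiation (-2.19 ± 0.20, edgeR q = 5.71e-07) and 0.662 and 0.932 at late passage (-2.02 ± 0.20, q = 1.21e-06). With HRAS it fell from 0.799 and 0.831 to 0.283 and 0.0996 CPM, counts of 41 and 12 (-2.06 ± 0.44, edgeR q = 0.00231; -3.02 without HRAS replicate 1). Irradiated endothelium held more, 0.982, 0.844 and 0.903 against 0.612 and 0.523 CPM in HAEC (0.67 ± 0.22, edgeR q = 0.0181) and 0.285, 0.351 and 0.247 against 0.0701, 0.140 and 0.160 in HUVEC (1.26 ± 0.40, q = 0.0150). The HAEC call was lost without control replicate 2 (edgeR q = 0.0922), without irradiated replicate 1 (q = 0.0628) and with all 37 libraries (q = 0.238). The HUVEC call was lost without control replicate 1 (edgeR q = 0.0753) or irradiated replicate 2 (q = 0.0685). In WI-38, CFD differed by -0.020 at late passage (edgeR q = 1), and the used comparisons gave 0.67, -0.43 and 0.57 for doxorubicin, its repeat and irradiation.

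C7 encodes a terminal component. In IMR-90 it stood at 2.12 and 2.18 CPM in proliferating, 2.67 and 2.51 in irradiated (0.27 ± 0.14, edgeR q = 0.126) and 4.49 and 5.62 in late-passage cells, where it rose (1.23 ± 0.14, q = 3.59e-06). It rose in irradiated HAEC from 0.0790 and 0.0503 to 0.619, 0.526 and 0.472 CPM, counts of 12 and 5 and 104, 91 and 94 (3.00 ± 0.40, edgeR q = 3.21e-06). HUVEC showed no such call, with 12, 20 and 11 counts in controls and 21, 2 and 10 after irradiation (-0.27 ± 0.65, edgeR q = 0.789). With HRAS, C7 fell from 2.10 and 2.51 CPM to counts of 8 and 0 (-6.22 ± 0.46, edgeR q = 5.46e-07). That value was -5.35 without HRAS replicate 2, and without replicate 1 the HRAS group is at 0, so no fold is given. Late-passage WI-38 overlapped with proliferating cells (-0.14, edgeR q = 0.842). In the used comparisons C7 stood at 10.6 and 8.89 CPM against 1.21 and 1.54 (2.83), 26.5 and 39.99 against 1.89 and 2.93 (3.79), and 21.9 and 17.3 against 1.72 and 2.47 (3.23), each without overlap.

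SERPING1 encodes C1 inhibitor, which restrains C1r and C1s. In IMR-90 it was lower after irradiation, 1.45 and 1.43 against 2.30 and 2.04 CPM (-0.59 ± 0.21, edgeR q = 0.0320), and at late passage, 0.650 and 1.08 (-1.34 ± 0.22, q = 1.61e-04). The irradiation call was lost with DESeq2 (adjusted p = 0.0584), with all 37 libraries (edgeR q = 0.214) and without any 1 of the 4 libraries (q = 0.0671 to 0.181). It fell in late-passage WI-38 from 23.7 and 16.97 to 5.56 and 6.44 CPM (-1.76 ± 0.25, edgeR q = 3.34e-04). The 6 untreated libraries of the second WI-38 set ran from 6.58 to 24.3 CPM, with the irradiation controls lowest (mean 7.12). SERPING1 at late passage thus lay below all 6, but by an amount that depends on which untreated group is used. With HRAS it stood at 1.55 and 1.68 CPM against 0.788 and 1.40 (0.57 ± 0.27, edgeR q = 0.100), and passed without empty-vector replicate 2 (0.94, q = 0.00818). While C1R and C1S dropped with HRAS, their inhibitor gave no call in either direction with all libraries.

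Irradiated WI-38 held 30.6 and 39.9 CPM of SERPING1 against 6.58 and 7.66 in its own controls (2.31), and the 6 untreated libraries of that set ran from 6.58 to 24.3 CPM. The doxorubicin values were 0.54 and 0.29 in the first experiment and the repeat. In HAEC the counts were 0 and 0 in controls and 0, 2 and 5 after irradiation, and in HUVEC 6, 0 and 0 and 0, 0 and 2. A count of 0 allows up to 3 counts in a library by counting error, so differences in endothelium were not detectable at this depth.

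CD55 and CD59 are held on the cell surface by a lipid anchor. CD59 had the highest level per length of the members in controls of HAEC, HUVEC and the first WI-38 set, and it was lower in irradiated endothelium. It fell in HAEC from 2058 and 2017 CPM to 1246, 1296 and 1287 (-0.67 ± 0.026, edgeR q = 1.75e-14) and in HUVEC from 1063, 1119 and 1157 to 916, 851 and 896 (-0.33 ± 0.039, q = 2.17e-07). In IMR-90 it rose instead, from 209 and 214 CPM to 706 and 727 after irradiation (1.76 ± 0.055, edgeR q = 9.82e-12) and 769.8 and 784 at late passage (1.88 ± 0.056, q = 4.97e-12). CD59 also rose with HRAS, from 396 and 342 to 711 and 634 CPM (0.87 ± 0.12, edgeR q = 1.19e-04). Late-passage WI-38 held 801 and 926 CPM against 551 and 559.5 (0.64 ± 0.18, edgeR q = 0.0321), a call lost without late-passage replicate 2 or proliferating replicate 1 or 2 (q = 0.198 to 0.237). The used comparisons gave -0.095, 0.11 and 1.24 for doxorubicin, its repeat and irradiation, the last with 1099.6 and 1371 CPM against 499 and 547. Exons of CD59 share 6.07% of their bases with another annotated gene.

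CD55 fell with CD59 in endothelium, from 37.1 and 36.7 to 23.7, 23.3 and 25.6 CPM in HAEC (-0.61 ± 0.048, edgeR q = 1.58e-09) and from 61.7, 59.3 and 61.3 to 52.2, 53.4 and 52.4 in HUVEC (-0.21 ± 0.036, q = 4.72e-05; q = 0.315 with all 37 libraries). With HRAS it rose from 7.83 and 6.71 to 14.7 and 13.5 CPM (0.95 ± 0.14, edgeR q = 1.27e-04). In IMR-90 it stood at 11.5 and 10.3 CPM in proliferating and 11.1 and 11.3 in irradiated cells (0.041, edgeR q = 0.789). Late-passage IMR-90 held 11.6 and 14.999 CPM (0.29 ± 0.11, edgeR q = 0.0397), and the call was lost without proliferating replicate 2 (q = 0.250), without late-passage replicate 2 (0.086, q = 0.530), in a fit of these 2 groups (q = 0.0772) and with all 37 libraries (q = 0.0893). Late-passage WI-38 overlapped with proliferating cells (0.056, edgeR q = 0.921), and the used comparisons gave 0.68, 0.22 and 0.68.

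The empty vector itself was set against untreated WI-38 of the first set, since the HRAS comparison rests on it. Of 9 members 1 was higher and 3 lower, where 37.5% of all genes were called, 15.6% higher and 21.9% lower. CD55 fell from 16.6 and 15.3 to 7.83 and 6.71 CPM (-1.13 ± 0.14, edgeR q = 2.03e-04) and CD59 from 513 and 541 to 396 and 342 (-0.51 ± 0.12, q = 0.00585), so that the HRAS libraries, at 14.7 and 13.5 CPM, lay above the empty vector but below untreated cells in CD55. C7 (0.74 ± 0.27, edgeR q = 0.0495) and C1S (-0.40 ± 0.13, q = 0.0246) each lost their call without untreated replicate 1 or 2, C7 also without empty-vector replicate 2 and C1S with all 37 libraries (q = 0.343) or the compared groups only (q = 0.101). SERPING1 passed without empty-vector replicate 2 (-0.73, edgeR q = 0.0488). C3 did not pass (-0.53, edgeR q = 0.0826).

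A direct comparison of late-passage with irradiated IMR-90 called 1 member higher and 2 lower of 9, with 10.6% of all genes called, 5.45% higher and 5.12% lower. Beside C3, given above, C7 was higher (0.96 ± 0.13, edgeR q = 4.76e-04; q = 0.197 with all 37 libraries) and SERPING1 lower (-0.74 ± 0.22, q = 0.0491). The SERPING1 call was lost without either irradiated replicate or late-passage replicate 1 (q = 0.182 to 0.260). It was also lost with all 37 libraries (edgeR q = 0.489) and the compared groups only (q = 0.0904). The calls numbered 5 without late-passage replicate 1, where C1R was 0.51, and 5 without replicate 2, where C1R was -0.45 and C1S -0.44.

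The radiation responses of HUVEC and HAEC differed in an interaction term for 5 of 8 members, 3 with the higher and 2 with the lower log2 fold change in HUVEC, where 18% of all genes were called, 8.85% higher and 9.11% lower. C7 rose in HAEC and not by the test in HUVEC (difference -3.27 ± 0.76, edgeR q = 0.00265; -4.02 without irradiated HUVEC replicate 1). The falls of CD55 (0.40 ± 0.058, edgeR q = 6.96e-06) and CD59 (0.35 ± 0.045, q = 1.50e-06) were shallower in HUVEC, calls that a fit of all 37 libraries did not make (q = 0.542 and 0.489). C3 (3.48 ± 1.16, edgeR q = 0.0369) and CFB (-0.69 ± 0.23, q = 0.0363) also passed. The C3 call was lost in 7 of the 11 fits without 1 library (q = 0.0520 to 0.0901; 4.82 without control HUVEC replicate 1) and that of CFB in 6 (q = 0.0511 to 0.0981). Cell type, culture medium and source of these cells cannot be told apart.

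Control cells were compared directly among the 25 libraries outside the second WI-38 set. All 9 members differed between control fibroblasts and endothelium, 7 higher in fibroblasts and 2 lower, where 58.2% of all genes were called, 30.5% higher and 27.8% lower. C1S (8.10 ± 0.16, edgeR q = 2.12e-23), C1R (7.61 ± 0.18, q = 4.97e-22), C3 (5.40 ± 0.27, q = 2.44e-15; 6.09 without control HUVEC replicate 1) and C7 (4.73 ± 0.26, q = 2.41e-14) were higher in fibroblasts. CFB (2.77, edgeR q = 1.93e-15) and CFD (2.78, q = 1.23e-10) were higher too. This contrast averages both strains, which differed in level. Mean CFB was 24.7 CPM in control IMR-90 and 1.71 in control WI-38, against 0.986 in HAEC and 1.26 in HUVEC. In the same order mean CFD was 3.23, 0.750, 0.568 and 0.123 CPM, and mean C3 16.998, 0.397, 0.199 and 0.0237. For these genes the difference from endothelium was thus larger in IMR-90 than in WI-38. SERPING1 also passed (edgeR q = 8.61e-14), but with control endothelium at 0 to 6 counts no fold is given. The surface regulators CD59 (-1.95 ± 0.054, edgeR q = 1.28e-20) and CD55 (-1.62 ± 0.070, q = 1.68e-16) were lower in fibroblasts. Per kilobase of exon, CD59 led in HAEC (197 ± 2.76 CPM per kb, SD, n = 2), HUVEC (107 ± 4.57, n = 3) and WI-38 of the first set (50.9 ± 1.96, n = 2), and C1S (87.2 ± 4.31, n = 2) and C1R (60.6 ± 1.29) led in IMR-90. In the second WI-38 set C1S lay above CD59 per kilobase in the repeat controls (72.7 and 90.003 against 53.3 and 44.8) and in proliferating cells (104 and 107 against 53.2 and 54.02), and below it in the irradiation controls (26.7 and 28.9 against 48.1 and 52.8).

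**Figure D4:**
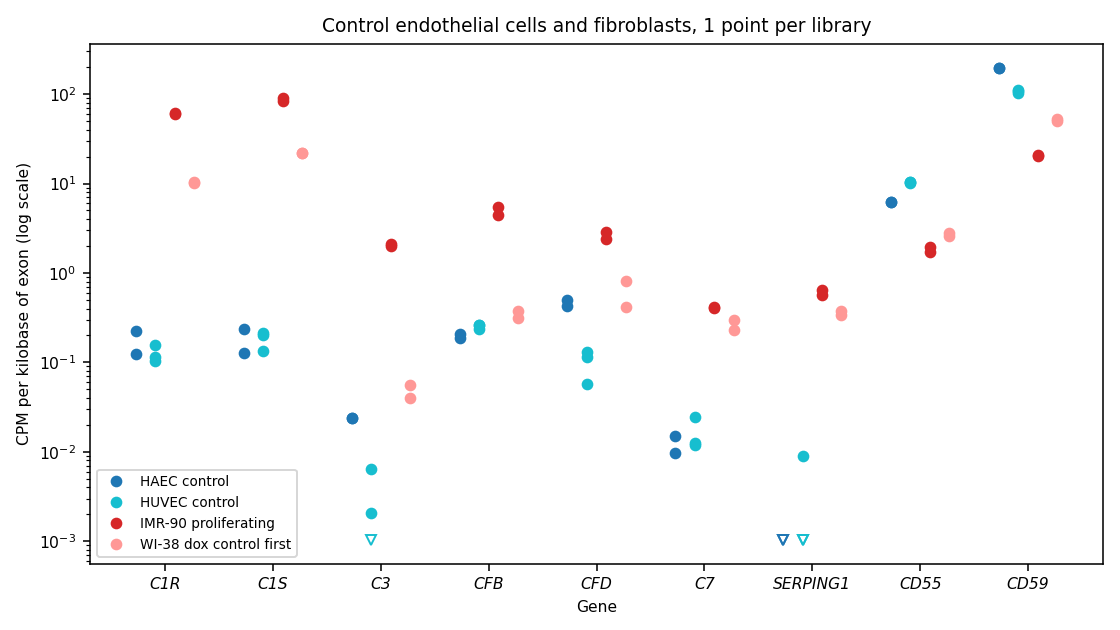
CPM per kilobase of exon (log axis) of the 9 complement genes (x axis) in control HAEC, HUVEC, IMR-90 and WI-38 of the first set, 1 point per library, open triangles at 0. CD59 and CD55 are highest in endothelium, and the other genes in IMR-90.

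The fibroblast strains also differed from each other before any treatment. Control WI-38 of the first set against control IMR-90 gave 2 members higher and 5 lower of 9, with 40% of all genes called, 22.1% higher and 17.9% lower. C3 (-5.21 ± 0.16, edgeR q = 9.11e-14), CFB (-3.64 ± 0.22, q = 3.32e-10), C1R (-2.35 ± 0.20, q = 3.28e-08), C1S (-1.77 ± 0.15, q = 1.99e-08) and CFD (-1.90 ± 0.32, q = 8.66e-05; -2.50 without WI-38 control replicate 2) were lower in WI-38. CD59 (1.52 ± 0.099, edgeR q = 7.38e-10) and CD55 (0.76 ± 0.13, q = 1.22e-04) were higher. SERPING1 and C7 passed as lower in a fit of these groups alone (edgeR q = 0.0149 and 0.0485). These IMR-90 libraries are also the controls of both IMR-90 comparisons. Between control HUVEC and HAEC 1 member was higher and 4 lower of 8 in HUVEC, where 36.7% of all genes were called, 18.7% higher and 18% lower. CD55 was higher (0.65 ± 0.044, edgeR q = 1.98e-12), and CD59 (-0.94 ± 0.033, q = 3.19e-18), CFD (-2.28 ± 0.31, q = 1.33e-06) and C3 (-3.05 ± 0.88, q = 0.00731; -4.40 without HUVEC replicate 1) were lower. C1R passed as lower too (-0.56, edgeR q = 0.0469), but stood at -0.0066 without HAEC replicate 1, and the call was lost with DESeq2 (adjusted p = 0.0762), with all 37 libraries (edgeR q = 0.201) and without HUVEC replicate 1 (q = 0.144) or 3 (q = 0.189).

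Other complement genes, 50 in 4 lists, were read beside the members. In irradiated IMR-90 5 rose and 11 fell of 29 tested, where 49.1% of all genes were called, with a median of -0.34 beside -0.020, and of the 8 other classical and lectin genes tested 7 fell, among them COLEC12, a collectin receptor (-2.60, edgeR q = 1.16e-10). At late passage 6 rose and 15 fell of 29 (background 50.1%, median -0.45 beside -0.039), with COLEC12 (-2.82, edgeR q = 5.91e-11) and C1RL, a relative of C1R (-2.63, q = 8.36e-10), lower. C1RL also fell after irradiation (-2.83, edgeR q = 4.58e-10). Its exons share 13.4% of their bases with C1R, so part of the C1RL reads is uncertain. C9, a terminal component, was called higher in both (1.19, edgeR q = 3.61e-09 and 1.26, q = 1.76e-09). Exons of C9 share 4.03% of their bases with DAB2, so part of its reads is uncertain. C1QBP (0.75, edgeR q = 2.05e-07) rose after irradiation and CD46, a membrane cofactor for C3b cleavage (0.49, q = 2.81e-06), at late passage.

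With HRAS 10 rose and 11 fell of 32, where 45.9% of all genes were called, 27.1% higher and 18.9% lower, with a median of 0.070 beside 0.071. Of 7 receptors tested 5 rose, led by ITGAX, a chain of a receptor for C3 fragments (5.35, edgeR q = 1.07e-05), and C5AR2, a C5a receptor (5.05, q = 7.90e-05), from 2 and 15 and from 3 and 6 counts with the empty vector. MASP1, a protease of the lectin pathway (-4.06, edgeR q = 5.11e-09), and C1RL (-2.33, q = 1.23e-07) fell with C1R. Because exons of C1RL share 13.4% of their bases with C1R, C1RL is not a fully separate measure. Late-passage WI-38 gave 2 higher and 3 lower of 38 (background 12.6%, median 0.19 beside 0.013), COLEC10, a circulating collectin (4.26, edgeR q = 2.30e-08), and C5AR1 (1.55, q = 0.0155) higher and COLEC12 (-1.19, q = 0.00132) and C1RL (-1.15, q = 0.00780) lower.

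In irradiated HAEC 12 rose and 3 fell of 28, where 39.7% of all genes were called, with a median of 0.34 beside 0.0093. In HUVEC 8 rose and 5 fell of 27, where 38.7% were called, with a median of 0.31 beside 0.014. CD93, a surface lectin-like protein of endothelium, fell in HAEC (-0.48, edgeR q = 5.88e-11), and C1QBP fell in HAEC (-0.41, q = 2.01e-09) and HUVEC (-0.58, q = 4.69e-12). C1RL rose (0.94, edgeR q = 1.96e-11) and COLEC12 fell (-0.31, q = 9.63e-06) in HUVEC. The overlap of C1RL with C1R applies here too. In WI-38 the counts were 14 higher and 2 lower of 32 in the first doxorubicin experiment (background 26.8%), 6 and 0 of 38 in the repeat (5.45%), and 10 and 1 of 38 after irradiation (15%). C1QBP (-0.83 ± 0.12) and, with a wide error, CD93 (-3.86 ± 0.87) were lower in the first. COLEC10 (2.94 ± 0.19) and C6 (3.79 ± 0.57) were higher in the repeat. COLEC10 (1.89 ± 0.18) and C2 (2.49 ± 0.31) were higher after irradiation, with C3AR1 (-2.29 ± 0.61) lower. C2 shares 32.9% of its exon bases with the read-through gene of CFB.

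Known inducers of complement genes and acute-phase genes, 18 in a list, were counted too. In IMR-90, 2 rose and 9 fell of 12 after irradiation (background 49.1%, median -1.26) and 3 rose and 8 fell of 12 at late passage (50.1%, median -0.96), with CEBPD, an acute-phase transcription factor, lower (-2.21, edgeR q = 1.59e-11 and -1.87, q = 6.40e-11). With HRAS 10 rose and 3 fell of 14 (background 45.9%, median 1.32), IL1A among the risen (7.96, edgeR q = 1.60e-09) and CEBPD lower (-1.30, q = 1.06e-05). At late passage in WI-38 6 rose and 2 fell of 15 (background 12.6%, median 0.83), with IRF1 higher (1.30, edgeR q = 0.00126) and CEBPD lower (-1.21, q = 0.00460). Irradiated HAEC had 6 higher and 3 lower of 12 (background 39.7%) and HUVEC 6 and 1 of 12 (38.7%), NFKBIA, an NF-kB feedback gene, higher in both (1.04, edgeR q = 1.24e-14 and 0.46, q = 1.94e-09). IL1B was lower in HAEC, with a wide error (-4.06 ± 0.62, edgeR q = 1.95e-05), and PTX3 in HUVEC (-0.44 ± 0.043, q = 6.69e-09). The used WI-38 comparisons had 11 and 0 of 14 (doxorubicin, background 26.8%), 7 and 0 of 15 (repeat, 5.45%) and 12 and 0 of 15 (irradiation, 15%), with IL6 (3.24 and 3.63) and, in the repeat, IL1B (5.06) named by the rule. IRF1 and IL6 overlap antisense genes in part of their exons. The part of these genes in the members' changes was not tested.

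The genes whose group means were most like those of C3 were SPATA6L (Pearson r = 0.945), the chemokine CXCL1 (0.940), DLGAP1-AS2 (0.925), SLC18B1 (0.920) and PPIC-AS1 (0.920), among 12462 genes over 17 groups after centring each set. For SERPING1 they were RRN3P1 (0.843), NFKBIA (0.830), VLDLR (0.820), WTAP (0.818) and PMS2CL (0.813). The points share libraries and scaling within a set, and whether reads of the antisense genes were counted by strand is not known. The 17 groups include the WI-38 doxorubicin and irradiation groups that chose the members, so these r values are a description. Only genes with an average log2 CPM of at least 1 were ranked, which left out C7, CFD and SERPING1 beside C3. Among the members ranked CFB was the most like C3 (r = 0.655, rank 361) and C1R had r = 0.138.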

How the data were processed

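Total RNA was sequenced after ribosomal depletion in 37 libraries. The authors deposited 1 table per library of raw read counts per gene, whole numbers with no normalization. Per the submitters' processing notes, the tools were featureCounts, STAR 2.4, cutadapt and bcl2fastq, on genome hg19. The sources used here give no settings, strandedness or annotation release.

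Of 57773 identifiers 52338 received a symbol, from a table of gene names or GENCODE release 29. Each of 15 comparisons used edgeR 4.0.16, run in R 4.3.3 (quasi-likelihood test, TMM scaling, filterByExpr, Benjamini-Hochberg adjusted p below 0.05 over all genes tested) in 1 fit per set, or in 1 fit of the sets compared. A standard error is the absolute log2 fold change over the root of the F statistic. CPM used TMM scaling, and CPM per kilobase the exon length of GENCODE. Intervals and floors, 3 counts for a count of 0, cover counting error only. Overlaps with other genes were checked on GENCODE, and shared sequence in stretches of 31 bases. The test was tried on simulated counts with 200 changed genes per comparison. Of the calls 1.30% to 14.5% were false, the most in IMR-90 late passage against proliferating. Of 2-fold changes 14.3% to 19.6% were recovered in the second WI-38 set, and 53.6% to 75.8% elsewhere. A missing call in that set therefore says little. Replicates differed by more than counting noise (chi-square per degree of freedom 7.96 to 489), and each library counts as 1 sample in the tests. This does not show that replicates were separate cultures.

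The members and lists were chosen with earlier results of these data known. Lists are other classical and lectin, terminal, regulator and receptor genes, inducers and acute-phase genes, and markers of leukocytes, hepatocytes, endothelium, fibroblasts and epithelium. The epithelial markers summed to 7.11 to 53.2 CPM in fibroblast and 187 to 256 in endothelial libraries. Named beside the members are, per comparison and direction, called genes of the other complement lists with the 2 smallest adjusted p and the inducer with the smallest, and the 5 genes most like C3 and SERPING1; some genes that this rule names are not reported here. MKI67, CXCL8 and HRAS were named outside this rule, after their values were seen.

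Alternatives were DESeq2 size factors, the DESeq2 1.42.0 Wald test, no low-count filter, the compared groups only, all 37 libraries in 1 fit, the replicate number as a block, and each library left out in turn; a lone library left in a group was assumed to have the spread of the remaining groups.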

Additional observations from a re-analysis of the deposited data

Results flagged for a closer look

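The edgeR interaction of radiation with endothelial cell type passed for C3 (3.48), C7 (-3.27), CFB (-0.69), CD55 (0.40) and CD59 (0.35), as HUVEC minus HAEC in log2 fold change. For C3 and CFB the call depended on single libraries, as given above.

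The following pairs of comparisons had every treated library on opposite sides of its controls, and the differences were not tested. In HAEC minus IMR-90 after irradiation they were CFB (4.82), CFD (2.86) and CD59 (-2.43), and in HAEC minus WI-38 they were C3 (-10.71), CD55 (-1.29) and CD59 (-1.92). HUVEC minus IMR-90 gave C3 (6.05), C1R (3.84), CFD (3.44) and CD59 (-2.08), and HUVEC minus WI-38 gave CD55 (-0.89) and CD59 (-1.57). IMR-90 minus WI-38 after irradiation gave C3 (-13.29), C1R (-4.39), C1S (-4.72), CFB (-6.20), CFD (-2.75) and SERPING1 (-2.90). At late passage IMR-90 minus WI-38 gave C3 (-9.31). The first doxorubicin experiment minus its repeat gave CFD (1.09). Those with WI-38 irradiation or doxorubicin use comparisons that chose the members. HAEC and HUVEC received 4 Gy and the fibroblasts 10 Gy. Endothelial C3 was at the edge of detection. Its change was not called in HAEC (edgeR q = 0.117), and the HUVEC call was lost in 4 of 6 fits without 1 library. CFD was called in neither doxorubicin experiment. Some of these opposite sides thus rest on low counts or on changes that were not called.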

How the results depend on the processing

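Over 1419 values of members under alternatives, 1295 kept direction and side of the threshold, 80 lost and 15 gained a call, and 29 changed sign, none of the last a called member. With all 37 libraries the members called numbered 3 in HAEC, 3 in HUVEC, 1 in IMR-90 late passage against irradiated and 1 in the interaction. Leaving out 1 library gave 3 to 5 calls in HUVEC, 2 to 5 in IMR-90 late passage against irradiated, 2 to 4 with the empty vector and 3 to 5 in the interaction; elsewhere counts stayed within 1.5 times.

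CFD at late passage in WI-38 turned to 0.0070 with the compared groups only and CFB with the empty vector to 0.097 with all 37 libraries. With 1 library left out, uncalled values spanned 0 for HAEC C1S -0.22 to 0.70, HUVEC C7 -0.99 to 0.20 and CFB -0.18 to 0.037, and irradiated IMR-90 CD55 -0.037 to 0.13. In the doxorubicin repeat C1R ran -0.26 to 0.42, CD55 -0.011 to 0.46 and CD59 -0.0100 to 0.24. In late-passage WI-38 C7 ran -0.57 to 0.22, CFB -0.23 to 0.021, CFD -0.27 to 0.36 and CD55 -0.091 to 0.22. In IMR-90 late passage against irradiated C1R ran -0.45 to 0.51, C1S -0.44 to 0.12, CFB -0.14 to 0.48 and CFD -0.098 to 0.39. With the empty vector CFB ran -0.29 to 0.15, CFD -0.29 to 0.68 and SERPING1 -0.73 to 0.11, in the interaction C1R -0.21 to 0.66, and between control HUVEC and HAEC C7 -0.095 to 0.71 and C1S -0.42 to 0.50. The cause was not tested.

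The labels give no pairing beyond the replicate number. Deviations of same-numbered libraries correlated at -0.325 to -0.0195 in HUVEC, -0.0350 and 0.156 in HAEC, 0.681 with HRAS, 0.483 in WI-38 irradiation and -0.181 to 0.0997 in the other comparisons of 2 against 2, too few to settle a pairing. With the replicate block the calls of CD55 in late-passage IMR-90 (edgeR q = 0.0509), SERPING1 in IMR-90 late passage against irradiated (q = 0.0567), CFB in the interaction (q = 0.0666) and C1R between control HUVEC and HAEC (q = 0.0884) were lost and SERPING1 with HRAS passed (q = 0.0475). Depth limits SERPING1 and C3 in endothelium, where no library held over 30 counts of C3 or 6 of SERPING1.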

Other observations

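Control cell types also differed in complement genes outside the 9 members, given here as further values of the same fits. Between control fibroblasts and endothelium 12 of 34 were higher and 10 lower in fibroblasts, where 58.2% of all genes were called. MASP1 (8.52, edgeR q = 2.85e-23) and COLEC10 (8.10, q = 1.59e-22), both of the lectin pathway, were higher in fibroblasts, and CD93 (-7.53, q = 3.40e-17) and CFI (-4.32, q = 1.47e-16), the protease that inactivates C3b, lower. Among inducers CEBPD (4.17, edgeR q = 1.42e-23) was higher and PTX3 (-3.39, q = 4.80e-16) lower.

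Control WI-38 held 6 of 32 higher and 9 lower than control IMR-90 (background 40%), with C1QBP (1.32, edgeR q = 6.92e-09), C9 (0.89, q = 1.42e-06) and PTX3 (2.65, q = 1.43e-07) higher and C1RL (-2.12, q = 4.05e-09), C4A (-2.08, q = 1.76e-08) and IL1A (-3.37, q = 1.11e-08) lower. C4A shares 95.5% of its 31-base stretches with other genes, so its reads are uncertain. Exons of C9 share 4.03% of their bases with DAB2 and those of C1RL 13.4% with C1R, so part of their reads is uncertain too. Control HUVEC held 6 of 28 higher and 8 lower than HAEC (background 36.7%), with CFI (3.47, edgeR q = 2.76e-21), COLEC12 (1.63, q = 4.65e-17) and IRF1 (0.42, q = 1.31e-04) higher and CSMD1 (-3.99, q = 1.48e-15) and PTX3 (-0.46, q = 1.39e-10) lower.

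The radiation response of HUVEC minus HAEC was positive for CD93 (0.33, edgeR q = 5.86e-06), C5 (0.41, q = 0.0367) and IL1A (1.90, q = 0.00818), and negative for COLEC12 (-0.97, q = 1.40e-09) and PTX3 (-0.55, q = 6.38e-09). With the empty vector MASP1 (1.02, edgeR q = 3.10e-04) and IRF1 (0.59, q = 0.0113) were higher than in untreated WI-38. C5AR2 passed as higher too (edgeR q = 0.0246), from 0 counts in both untreated libraries to 3 and 6, and no fold is given. COLEC12 (-0.85, edgeR q = 4.42e-04) was lower. Late-passage IMR-90 held more MASP1 (1.48, edgeR q = 7.78e-07), CLU (0.56, q = 0.00135) and STAT3 (0.31, q = 0.00338) than irradiated IMR-90, and less COLEC10 (-0.50, q = 1.90e-04).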
